A study of Solanum lycopersicum with 18 samples.

Results

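Among the 23348 genes of a tomato leaf RNA-seq table, 50 genes that carry only a locus identifier beginning with LOC were much higher after 4 h and after 12 h of treatment than at 0 h, in both plant lines. They were picked from 21383 genes with such an identifier by measured values. The mean of log2(FPKM + 1) over 3 libraries had to be at least 2 above the 0 h mean at 4 h and at 12 h, in both lines, and genes of 1 segment of chromosome 7 were set aside. FPKM counts fragments per transcript length and per total of mapped fragments, so levels can be set side by side between genes. Because 4 h and 12 h against 0 h chose these genes, those differences are described here without a test. The tests concern EX against MT at each hour and 12 h against 4 h within each line, for which the rule sets no size. They are built from the same group means, though, and the rule kept only genes high at both hours in both lines. Genes that rose by this much at only 1 of the hours or in only 1 line were thereby left out, although no fixed bound is set on these differences. The counts of these tests are therefore a description of genes chosen in this way.

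The study compared leaves of 2 tomato materials, Micro-TOM-EX (EX below) and Micro-TOM (MT below), a dwarf cultivar, with 3 libraries of each line at 0, 4 and 12 h. Pots stood in a greenhouse under long days, and the growth protocol says that both materials received cold stress for these hours. A stress label reads cold for all 9 EX libraries, those of 0 h included, and control for all 9 MT libraries, so the labels disagree on what MT received. What distinguishes EX from MT beyond the suffix is not stated in the labels, nor is the temperature. The EX groups are therefore Micro-TOM-EX leaves at 0, 4 and 12 h, and the MT groups are Micro-TOM leaves at 0, 4 and 12 h. Hours since the start and hour of the day move together. No libraries that both the protocol and the label give as untreated at 4 h or 12 h were analysed here, so treatment and hour of the day cannot be told apart. The labels do not say that replicate libraries came from separate plants, so the p-values measure only the spread between libraries, which may be technical.

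Leaves answer chilling within hours, through transcription factors such as the C-repeat binding factors, through hormones such as abscisic acid and through changes in carbohydrate and lipid metabolism. The circadian clock and the daily light cycle also move a large share of leaf transcripts over the same span. Abscisic acid, a hormone of cold and water shortage, is made from carotenoids, and the cleavage of epoxycarotenoids by NCED enzymes is its committed step.

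The spacing of low FPKM values put the depth at 16300000 to 18600000 fragments per library. The 22 leaf genes checked, light-harvesting, photosystem and Rubisco genes, were above 0 in every group and summed to 48026 to 113287 FPKM per library. Pollen genes LAT52 and LAT59 summed to at most 0.33 FPKM, and the root gene PT4 reached at most 0.12 FPKM. Of the fruit genes found, TAGL1 was near 0, and phytoene synthase Psy1, which leaves also express, was higher at the later hours in the same way as the 50 genes. Other fruit, flower, root and wound symbols were looked for and not found. Genes that the table lists by a LOC identifier could be missed, so these few genes do not show that other tissues were absent. The wound-response gene mcpi, which lies in the segment set aside, had 72.3 to 240 FPKM in EX libraries and 4.04 to 211 FPKM in MT libraries. Its means at 0, 4 and 12 h were 179, 128 and 121 FPKM in EX, and 7.95, 140 and 38.1 FPKM in MT. Both later means were therefore lower than at 0 h in EX and higher in MT. The part of mcpi in the results below was not tested. On the second principal component of the 17870 genes tested, the first MT libraries of 0 h and 4 h stood apart, at 61.9 and 52.6, against -40.7 to 14.3 for the other libraries. The number of genes that met the rule and the calls between 2 groups were also obtained without them. Rises, levels, medians, the patterns between 4 h and 12 h and the interaction between line and hour are given with all libraries only.

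The rises that chose the 50 genes had a median of 2.90 at 4 h and 3.22 at 12 h in EX, and of 2.68 at 4 h and 3.07 at 12 h in MT, on the log2(FPKM + 1) scale. That scale understates the change of genes with low values. Taking for each gene the smallest of its 4 rises, the values ran from 2.01 to 6.49 with a median of 2.45. The smallest rise was at least 4 in 4 genes and at least 3 in 12. As background, a rise of at least 2 was met by 0.514% of all 23348 genes at 4 h and 0.78% at 12 h in EX, and by 0.698% at 4 h and 0.741% at 12 h in MT. All 4 rises were met by 0.278% of the genes, and nothing is read from the members' count against these shares because the same contrasts chose them. In bulk leaf RNA, more cells of a type and more RNA per cell cannot be told apart.

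Together the 50 genes held 0.036 to 0.064% of a library's FPKM in EX at 0 h, 0.383 to 0.557% at 4 h and 0.567 to 0.62% at 12 h. In MT they held 0.046 to 0.065% at 0 h, 0.429 to 0.562% at 4 h and 0.507 to 0.592% at 12 h. Averaged over the 4 h and 12 h groups, their levels ran from 6.86 to 393 FPKM with a median of 38.7. The level was at least 100 FPKM in 12 genes, between 20 and 100 in 26 and under 20 in 12. At 0 h the mean level was 0.182 to 80.3 FPKM with a median of 3.36, and 10 genes were under 1 FPKM. Because 0 h levels enter every rise, genes with few fragments at 0 h have the least certain values, and 3 genes were listed at 0 in at least 1 library of 0 h. In 49 of the 50 genes all 12 later libraries lay above all 6 libraries of 0 h, which holds for 2.61% of all genes and again follows from how the genes were chosen. The exception was LOC101254427, at 6.07 FPKM in MT library 1 of 4 h, against 6.48 FPKM in MT library 2 of 0 h.

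In EX at 4 h, library 2 was the highest of the 3 in 35 of the 50 genes, against 32.8% of all genes tested, and library 1 was the lowest in 35, against 37.2%. The median SD of the 50 genes within a group was 0.281 in EX at 4 h and 0.424 in MT at 4 h on the log2 scale, beside 0.129 and 0.27 over all genes tested. Their replicates were therefore further apart than those of the median gene, which the limma fit takes into account gene by gene.

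**Figure D1:**
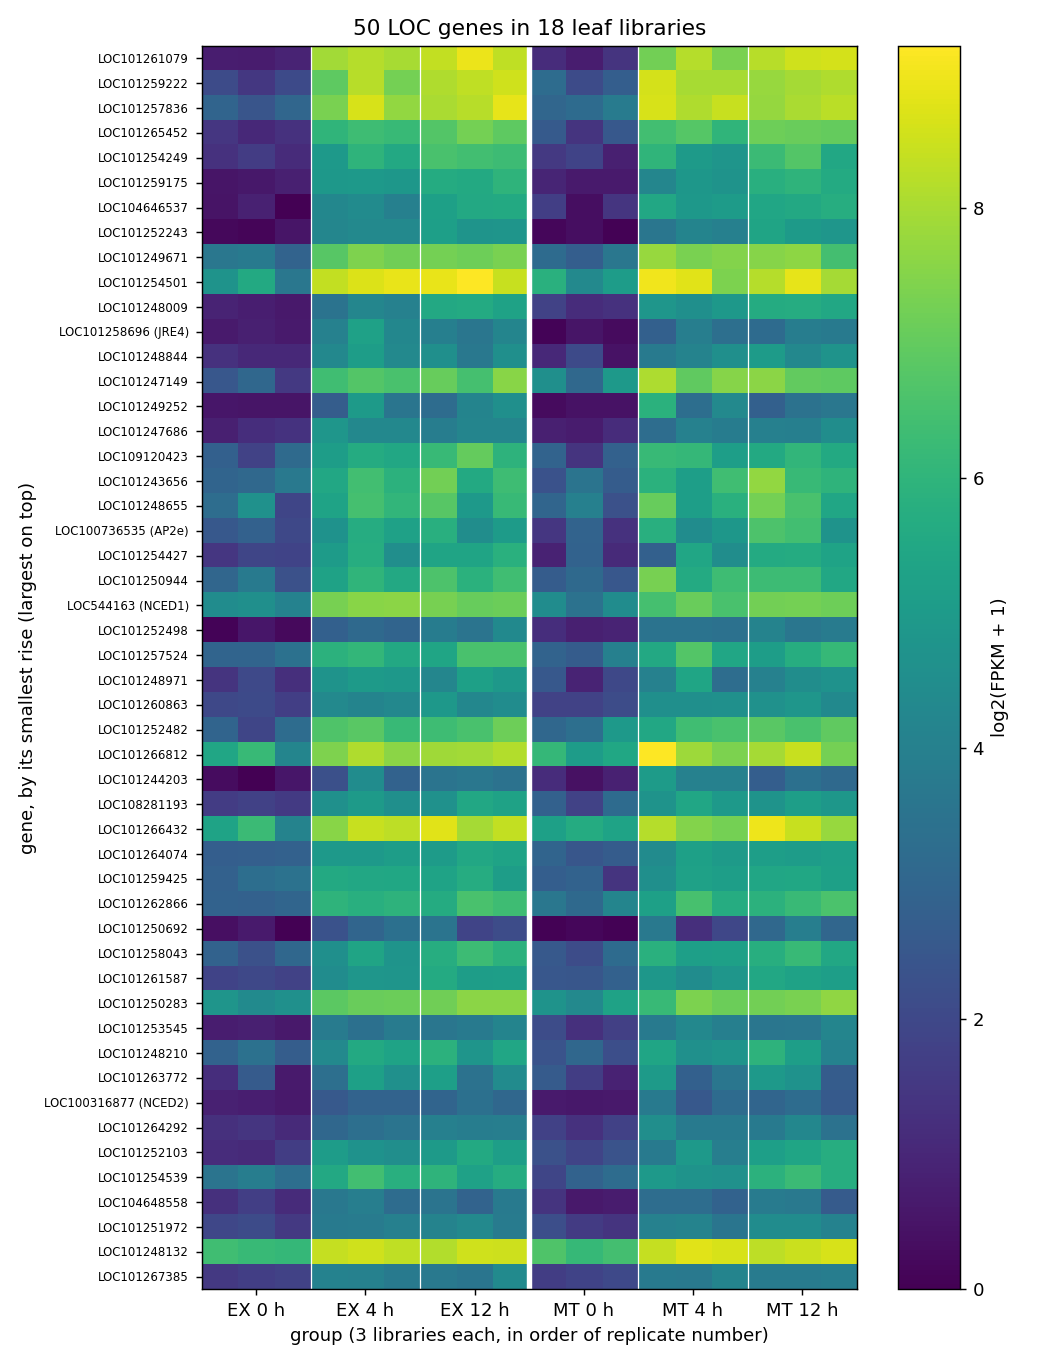
Level of the 50 genes (rows, ordered by the smallest of their 4 rises, largest on top) in the 18 libraries (columns, EX groups left, MT groups right, 3 libraries per group), as log2(FPKM + 1) in colour. The 0 h columns of both lines are the darkest in nearly every row, and LOC101254501, LOC101248132 and LOC101257836 are among the brightest rows later.

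The largest contrast belonged to LOC101261079 on chromosome 2 (30601561 to 30604357). In EX its libraries had 0.67, 0.63 and 0.88 FPKM at 0 h, 239, 289 and 252 FPKM at 4 h, and 322, 488 and 317 FPKM at 12 h. In MT they had 1.25, 0.65 and 1.62 FPKM at 0 h, 149.6, 288 and 163 FPKM at 4 h, and 292, 369 and 390 FPKM at 12 h. No library of 4 h or 12 h came near a library of 0 h in either line, and the later mean was 312 times the 0 h mean. The gene does not carry a product name in the sources used here, and the same holds for all genes below that are given by a LOC identifier alone.

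LOC101259222 (chromosome 3, 54318427 to 54321340) and LOC101257836 (chromosome 12, 2734622 to 2737818) joined high later levels to large rises. LOC101259222 had 3.32, 1.84 and 3.2 FPKM at 0 h, 119, 295 and 156 FPKM at 4 h and 272, 320 and 373 FPKM at 12 h in EX. In MT it had 8.45, 3.31 and 5.8 FPKM at 0 h, 390, 257 and 254 FPKM at 4 h and 216, 247 and 276 FPKM at 12 h. Its EX mean was higher at 12 h than at 4 h and its MT mean was lower, with overlapping libraries in both lines. LOC101257836 showed the same order, with means of 6.13 ± 1.55 FPKM at 0 h, 257 ± 128 FPKM at 4 h and 339 ± 105 FPKM at 12 h in EX (SD, n = 3 each). In MT its means were 9.54 ± 3.25 FPKM at 0 h, 336 ± 62.4 FPKM at 4 h and 258 ± 43.9 FPKM at 12 h (SD, n = 3 each).

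LOC101265452 (chromosome 7, 61593192 to 61594419) and LOC101254249 (chromosome 1, 97617534 to 97621275) had a higher mean at each later hour in both lines. LOC101265452 averaged 1.45 ± 0.331, 72.0 ± 8.47 and 126 ± 25.6 FPKM at 0, 4 and 12 h in EX (SD, n = 3 each). In MT it averaged 3.82 ± 1.94, 85.5 ± 21.4 and 135 ± 6.26 FPKM at the same hours. Every 12 h library of LOC101265452 lay above every 4 h library of its line, although the test below did not call the step. LOC101254249 averaged 1.58 ± 0.48, 45.9 ± 16.1 and 85.2 ± 7.33 FPKM in EX, and 1.75 ± 0.952, 40.6 ± 20.1 and 75.9 ± 31.0 FPKM in MT at 0, 4 and 12 h.

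Of the 8 genes with the largest rises, the least abundant were LOC101259175 (chromosome 8, 1700688 to 1704243), LOC104646537 (chromosome 3, 69149927 to 69150481) and LOC101252243 (chromosome 2, 50267107 to 50271748). LOC104646537 had 0.4, 0.81 and 0 FPKM at 0 h in EX, against 2.26, 0.26 and 1.69 FPKM at 0 h in MT, which corresponds to about 0 to 17.0 fragments per library. LOC101252243 rested on about 1.0 to 15.2 fragments at 0 h, at 0.03 to 0.43 FPKM. For both genes the later levels are well measured and the size of the rise is not.

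**Figure D2:**
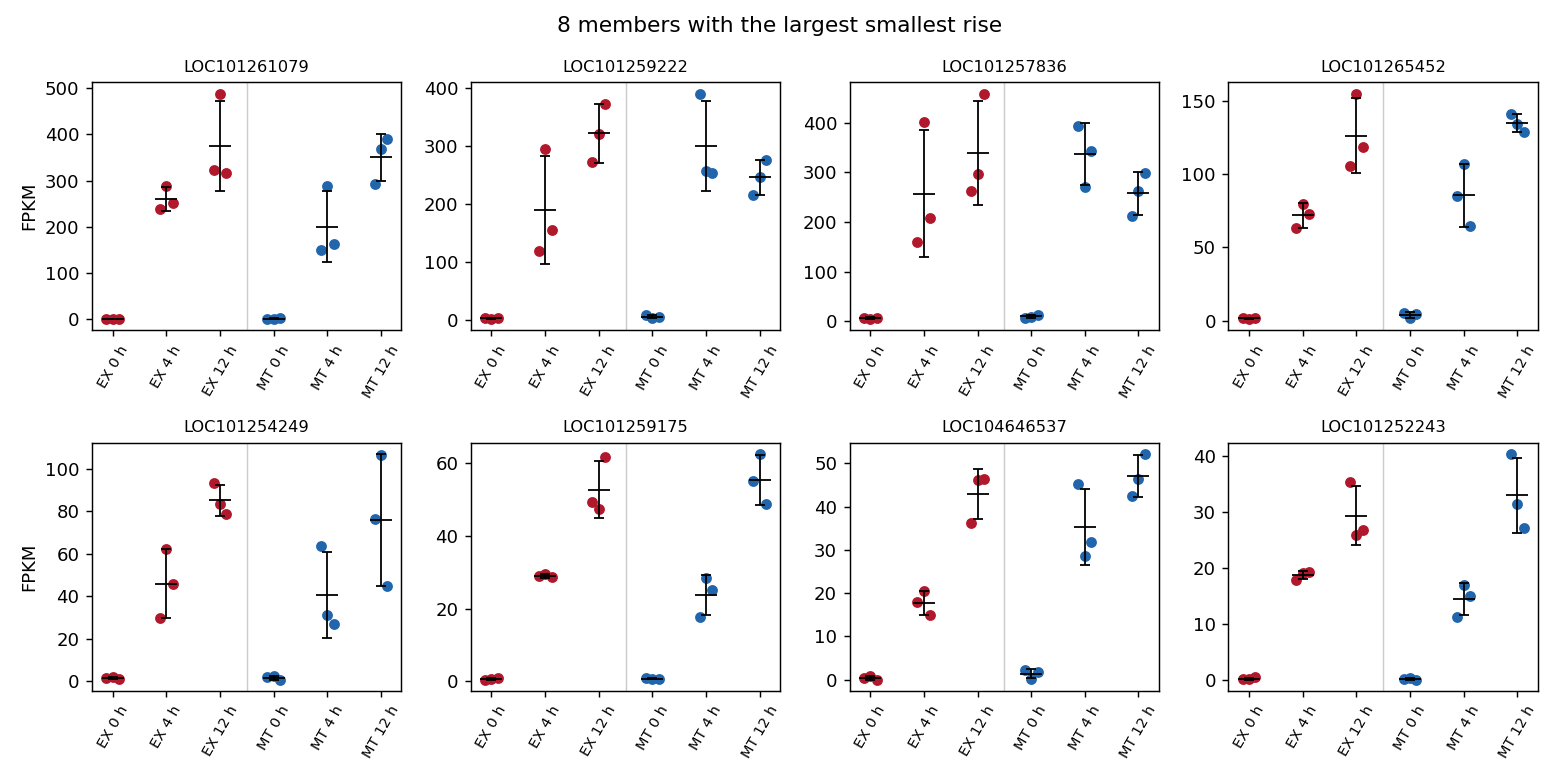
FPKM in each library (points), with the mean and SD of 3 libraries (bars), of the 8 genes with the largest smallest rise, EX in red and MT in blue at 0, 4 and 12 h on linear axes that differ between panels. In LOC101261079 the 0 h points lie at 0.63 to 1.62 FPKM and the later points at 149.6 to 488 FPKM.

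The most abundant of the 50 genes later was LOC101254501 (chromosome 6, 42537988 to 42538884). Its EX libraries had 25.1, 46.9 and 11.6 FPKM at 0 h, 329, 416 and 471 FPKM at 4 h and 476, 586 and 340 FPKM at 12 h. Its MT libraries had 56.1, 19.3 and 33.3 FPKM at 0 h, 505, 434 and 165 FPKM at 4 h and 288, 464 and 247 FPKM at 12 h. Libraries of 1 group differed by more than 2-fold at 0 h in both lines and at 4 h in MT. LOC101248132 (chromosome 9, 61954002 to 61956045) was nearly as abundant and far tighter, with 74.2 ± 6.35, 340.4 ± 28.4 and 336 ± 49.975 FPKM in EX at 0, 4 and 12 h (SD, n = 3 each). In MT it had 86.4 ± 15.1, 388 ± 51.5 and 350.2 ± 44.6 FPKM. It had the highest 0 h level of the 50 and, by the ratio of later to 0 h means, the lowest fold, 4.41. LOC101266432 (chromosome 7, 58319204 to 58321379) averaged 44.0 ± 30.1, 279 ± 82.9 and 336 ± 94.6 FPKM in EX, and 41.7 ± 7.41, 208 ± 72.2 and 353 ± 141 FPKM in MT.

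Although the table lists all 50 genes without a name, 49 have an entry in a RefSeq gene table and 4 carry a symbol there, against 555 of all 21383 LOC genes. These are NCED1, NCED2, JRE4 and AP2e, singled out after their values were seen. Of the 49 genes with an entry, 48 are protein-coding and LOC101261587 is a non-coding RNA of the class misc_RNA.

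NCED1 (LOC544163, chromosome 7, 64361075 to 64363240), an enzyme of that committed step of abscisic acid synthesis, had 21.2, 23.1 and 15.9 FPKM at 0 h, 158, 187 and 194 FPKM at 4 h and 157, 131 and 141 FPKM at 12 h in EX. In MT it had 21.1, 10.1 and 21.0 FPKM at 0 h, 88.4, 137 and 94.0 FPKM at 4 h and 149, 154 and 144 FPKM at 12 h. At 4 h all 3 EX libraries lay above all 3 MT libraries, and the difference of 0.77 ± 0.23 (SE, log2 scale) was not called (limma, adjusted p = 0.191). NCED2 (LOC100316877, chromosome 8, 8734210 to 8736394), a second enzyme of this kind, was far lower. It averaged 0.687 ± 0.137, 6.09 ± 1.002 and 7.87 ± 1.38 FPKM in EX and 0.543 ± 0.05, 8.69 ± 4.12 and 6.85 ± 1.67 FPKM in MT at 0, 4 and 12 h (SD, n = 3 each).

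The other 6 genes of abscisic acid synthesis, breakdown and perception that were looked up, a list drawn up after the values were seen, did not share this pattern. In 0 of the 6 was the mean of log2(FPKM + 1), the scale of all such counts below, higher than at 0 h in all 4 contrasts, and in 3 it was lower in all 4. These were ZEP, the epoxidase upstream of NCED, and CYP707A1 and CYP707A2, hydroxylases that inactivate abscisic acid. For CYP707A1 in MT at 4 h the log2 mean was different by -0.03, and the mean FPKM was 14.2 at 4 h, against 13.7 at 0 h. CYP707A2 averaged 199.9 ± 144, 43.2 ± 13.6 and 42.0 ± 23.0 FPKM in EX and 74.4 ± 56.7, 46.7 ± 13.3 and 55.7 ± 11.8 FPKM in MT at 0, 4 and 12 h, with an SD at 0 h close to or above the difference between hours.

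JRE4 (LOC101258696, chromosome 1, 84028888 to 84029877) encodes a jasmonate-responsive ERF-type factor that controls genes of steroidal glycoalkaloid synthesis in tomato. It had 0.6, 0.74 and 0.58 FPKM at 0 h, 15.3, 37.1 and 17.95 FPKM at 4 h and 14.8, 11.3 and 17.3 FPKM at 12 h in EX. In MT it had 0.07, 0.45 and 0.2 FPKM at 0 h, 6.11, 14.3 and 9.17 FPKM at 4 h and 8.39, 13.8 and 12.4 FPKM at 12 h. All EX libraries of 4 h lay above all MT libraries of 4 h, and the difference of 1.14 ± 0.31 (SE) was not called (limma, adjusted p = 0.149). The other 4 JRE genes, which lie beside it on chromosome 1, averaged at most 1.18 FPKM in any group, and reads of such related neighbours could be split between copies. Of 8 glycoalkaloid (GAME) genes, none met the rule, and GAME1, GAME17 and GAME18 were above their 0 h mean in all 4 contrasts. GAME3 was below it in all 4, but averaged only 0.037 to 0.12 FPKM, too near 0 to read a direction. GAME18, a glycosyltransferase of the pathway, averaged 1.61 ± 0.592, 11.6 ± 2.87 and 11.0 ± 2.63 FPKM in EX and 0.923 ± 0.718, 5.36 ± 0.831 and 12.3 ± 3.08 FPKM in MT at 0, 4 and 12 h.

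AP2e (LOC100736535, chromosome 6, 46862885 to 46868860), a transcription factor of the AP2 family, had 4.81, 6.26 and 3.03 FPKM at 0 h, 25.1, 51.0 and 37.7 FPKM at 4 h and 55.0, 21.8 and 32.2 FPKM at 12 h in EX. In MT it had 1.76, 6.58 and 1.49 FPKM at 0 h, 54.7, 21.3 and 28.0 FPKM at 4 h and 97.1, 84.0 and 25.2 FPKM at 12 h. Its spread within the later groups was wide, and no tested comparison of AP2e was called. Its relatives AP2c and AP2d were above their 0 h mean in all 4 contrasts and AP2a and AP2b below it. AP2d averaged 57.8 ± 46.8, 157 ± 28.3 and 203 ± 67.4 FPKM in EX and 47.6 ± 15.7, 157 ± 81.0 and 217 ± 87.7 FPKM in MT at 0, 4 and 12 h.

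**Figure D3:**
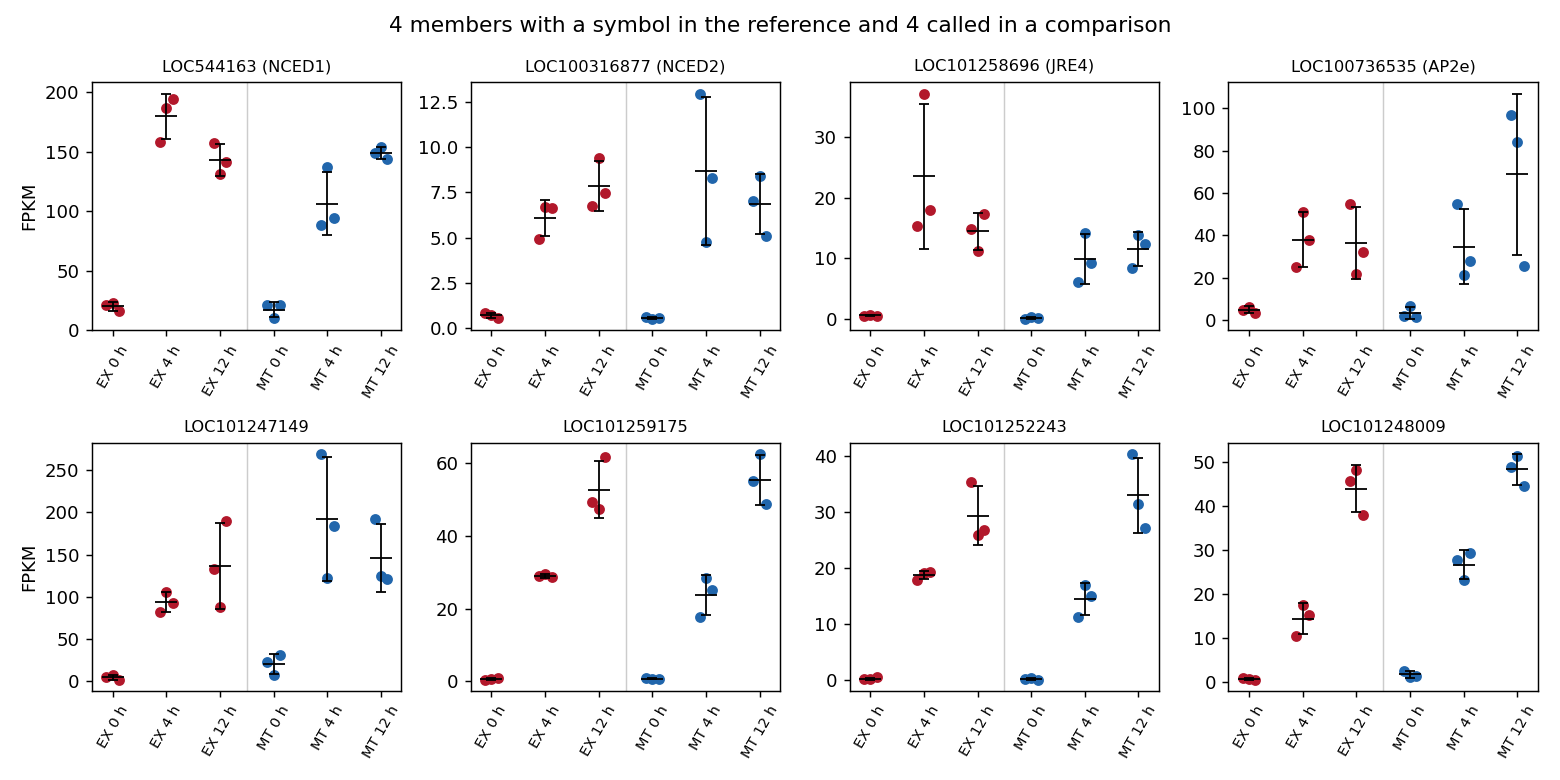
FPKM in each library (points), with mean and SD of 3 libraries (bars), of the 4 genes with a symbol in the reference (upper row) and of 4 genes called in a tested comparison (lower row), EX in red and MT in blue at 0, 4 and 12 h. At 4 h the EX points of NCED1 lie at 158 to 194 FPKM and the MT points at 88.4 to 137 FPKM.

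The genes at the edge of the rule were LOC101267385, LOC101248132 and LOC101251972 just inside, with smallest rises of 2.01, 2.01 and 2.02. LOC101246984, LOC101268829 and LOC101263673 lay just outside, with 1.998, 1.97 and 1.95. LOC101263673 averaged 8.57 ± 7.74, 47.1 ± 21.2 and 104 ± 35.5 FPKM in EX at 0, 4 and 12 h, so genes on either side of the threshold can be alike in level. Leaving out 1 library at a time changed the number of genes that met the rule to between 41 and 61, and 28 of the 50 met it whichever library was left out. Without the first MT libraries of 0 h and 4 h, 48 genes met it, 44 of them among the 50.

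The 50 genes were spread over all 12 chromosomes, from 1 gene on chromosome 9 to 9 genes on chromosome 3. Their longest transcripts had a median of 1985 bases, against 1687 bases over all genes, and 31 of the 50 have 1 transcript in the table. A single pair lay within 50 kb without overlapping, LOC101254501 and LOC101248210 (chromosome 6, 42557787 to 42561731), whose starts are 19799 bases apart on the same strand. LOC101248210 was less abundant, with 7.21 ± 2.22, 35.3 ± 14.6 and 42.5 ± 15.8 FPKM in EX and 5.05 ± 2.06, 30.3 ± 9.46 and 36.8 ± 22.04 FPKM in MT at 0, 4 and 12 h. LOC101258043 and LOC101250283 overlap on the same strand of chromosome 3, and both start at 52137627. Fragments from the overlap cannot be assigned with certainty, and their values are not independent of each other. LOC101250283 averaged 23.5 ± 3.29, 130.3 ± 11.1 and 176 ± 26.0 FPKM in EX and 27.5 ± 9.71, 125 ± 47.8 and 171 ± 26.4 FPKM in MT.

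At 0 h, EX and MT differed in 3 of the 50 genes, and all 3 were lower in EX (limma, adjusted p under 0.05 over 17870 genes). No gene of the 50 was called higher, where 0.979% of all genes were, and 3 called lower compare with 2.19% of all genes. With FPKM rescaled by median-of-ratios factors, the calls over all genes changed from 175 higher and 392 lower to 209 higher and 152 lower, and 1 of the 50 genes remained lower. The median difference of the 50 genes was -0.10, beside -0.10 over all genes, and 14 of them had an unadjusted p under 0.05 (4249 of all 17870 genes tested). LOC101247149 (chromosome 1, 3634630 to 3636314) had 4.61, 7.32 and 1.86 FPKM in EX, against 23.1, 7.52 and 30.6 FPKM in MT. The lines do not overlap, but EX library 2 and MT library 2 nearly meet, and the difference was -1.87 ± 0.46 (SE, limma, adjusted p = 0.0438). LOC101253545 (chromosome 10, 63939578 to 63944319) had 0.66, 0.73 and 0.54 FPKM in EX, against 3.35, 1.4 and 2.37 FPKM in MT, a difference of -0.997 ± 0.23 (SE, limma, adjusted p = 0.036). The non-coding RNA LOC101261587 (chromosome 3, 2326795 to 2328439) had 2.61, 2.99 and 2.48 FPKM in EX, against 4.66, 4.5 and 6.32 FPKM in MT, a difference of -0.73 ± 0.17 (SE, limma, adjusted p = 0.0378). The 3 calls did not hold when single libraries were left out: 0 remained when MT library 1 of 0 h was left out, alone or together with that of 4 h, and also without MT library 3, EX library 1 or EX library 3. A fit of the 2 groups alone also left 0, with adjusted p of 0.315 to 0.344, and the replicate block left LOC101253545. The differences themselves stayed negative in each of these fits, at -0.79 to -1.01 for LOC101253545 with a library left out that ended the 3 calls. Leaving out MT library 2 gave 12 calls. The calls over all genes moved too, with 567 in the full fit, 90 to 148 without each of the 4 libraries that left 0 members, 23 in the 2 groups alone and 3397 without MT library 2.

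At 4 h limma called 0 of the 50 genes between EX and MT, where 0.297% of all genes were called, and 11 of the 50 had an unadjusted p under 0.05 (2515 of all genes). The smallest adjusted p was 0.0863, for LOC101248009, and the differences ran from -1.17 to 1.14 with a median of 0.09. LOC101244203 stood at the low end, with 3.79, 21.1 and 6.46 FPKM in EX, against 31.97, 15.4 and 15.5 FPKM in MT, and JRE4 at the high end. At 12 h limma again called 0 of the 50 genes, where 0.134% of all genes were called, and 0 of the 50 had an unadjusted p under 0.05 (599 of all genes). The 12 h differences ran from -0.84 to 0.68 with a median of 0.03. With 3 libraries per group these counts do not show that the lines are alike.

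The rule set the rises over 0 h at 2 or more, so the change between 4 h and 12 h is not weighed against them. In 39 the mean changed by less than 1 log2 unit in both lines, and in 11 it changed by at least 1 in 1 line. Of these 11, 6 were at least 1 higher at 12 h in MT alone, 3 in EX alone, and 2 were at least 1 lower at 12 h in MT alone. In the last 2, MT library 1 of 4 h, which stood apart on the second principal component, was the highest at 4 h. These counts were not obtained without it. The mean was higher at 12 h than at 4 h in 37 genes in EX and in 33 genes in MT. Median differences were 0.29 in EX and 0.37 in MT, beside 0.03 and -0.05 over all genes. The shares of all genes with a higher mean at 12 h, or with a change of at least 1 log2 unit, were not obtained. The genes were chosen through the same 4 h and 12 h means, so these counts and medians only describe them. Whether they rose further than other genes between 4 h and 12 h was not tested.

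In EX, limma called 1 gene higher at 12 h than at 4 h and 0 lower, where 0.14% of all genes were called higher and 0.0616% lower, and 12 of the 50 had an unadjusted p under 0.05 (1185 of all genes). It was LOC101248009 (chromosome 5, 2319479 to 2322435), with 45.7, 48.1 and 37.9 FPKM at 12 h, against 10.4, 17.5 and 15.3 FPKM at 4 h. All 12 h libraries lay above all 4 h libraries, by 1.56 ± 0.19 (SE, limma, adjusted p = 0.00102). The call held in every alternative tried, with adjusted p of 0.000736 to 0.0361. In MT it had 48.9, 51.4 and 44.6 FPKM at 12 h, against 27.7, 23.1 and 29.3 FPKM at 4 h, a difference of 0.84 ± 0.19 that was not called (SE, limma, adjusted p = 0.0612).

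In MT, limma called 2 genes higher at 12 h than at 4 h and 0 lower, where 0.162% of all genes were called higher and 0.392% lower, and 12 of the 50 had an unadjusted p under 0.05 (2216 of all genes). Under median-of-ratios scaling the calls over all genes were 37 higher and 51 lower in place of 29 and 70, and both genes kept their calls. LOC101259175 had 55.1, 62.5 and 48.8 FPKM at 12 h, against 17.7, 28.3 and 25.2 FPKM at 4 h, a difference of 1.21 ± 0.16 (SE, limma, adjusted p = 0.00245). In EX it had 49.4, 47.3 and 61.7 FPKM at 12 h, against 28.9, 29.5 and 28.6 FPKM at 4 h, a difference of 0.83 ± 0.16 that narrowly missed the threshold (SE, limma, adjusted p = 0.0557). LOC101252243 had 40.2, 31.4 and 27.2 FPKM at 12 h, against 11.3, 17.0 and 14.9 FPKM at 4 h, a difference of 1.14 ± 0.18 (SE, limma, adjusted p = 0.0057). Both calls held with any single MT library of 4 h or 12 h left out and without the first MT libraries of 0 h and 4 h. Both were lost in a limma fit of the 2 MT groups alone, with adjusted p of 0.13 for LOC101259175 and 0.16 for LOC101252243. That fit called 1 of all genes, against 99 in the full fit. With a pseudocount of 0.1 the call of LOC101252243 was lost (limma, adjusted p = 0.171).

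**Figure D4:**
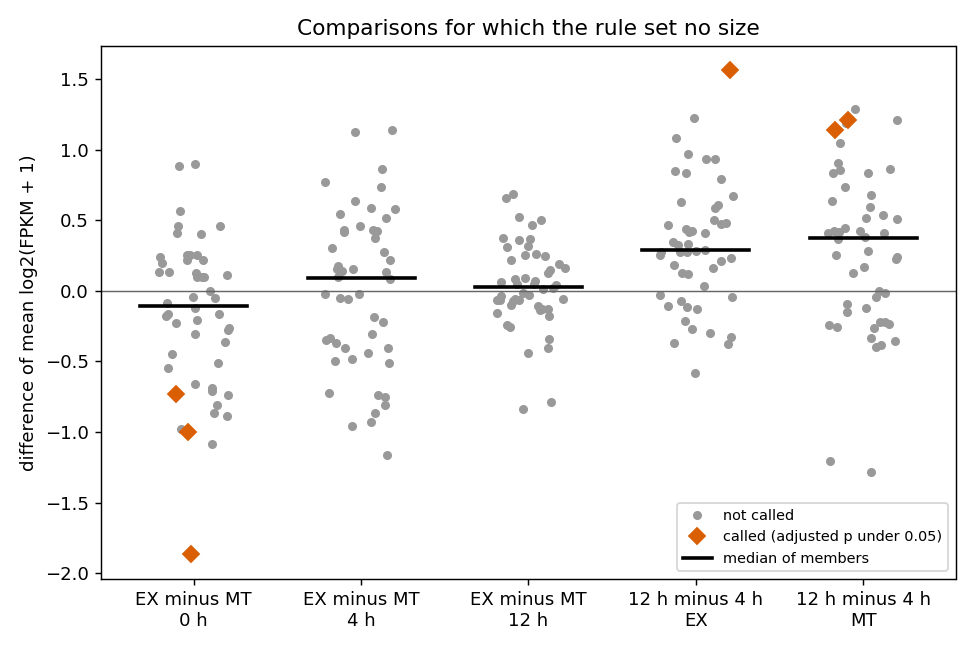
Difference of mean log2(FPKM + 1) of each of the 50 genes (points) in the 5 comparisons for which the rule set no size, though they share its group means, with called genes as orange diamonds and the median as a bar. The medians of 12 h minus 4 h lie above 0, at 0.29 in EX and 0.37 in MT, and those of EX minus MT lie between -0.10 and 0.09.

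Whether the change between 4 h and 12 h differed between the lines was tested as an interaction, added after the data were seen. For EX minus MT, limma called 0 of the 50 genes, where 0.0392% of all genes were called, and 8 of the 50 had an unadjusted p under 0.05 (1556 of all genes). LOC101248009, called in EX alone, had an interaction of 0.73 ± 0.27 (SE, limma, adjusted p = 0.539), so a difference between the lines was not shown. The smallest adjusted p was 0.467, for LOC101254539 (chromosome 1, 93552563 to 93556474). It had 61.5, 37.4 and 50.7 FPKM at 12 h in EX, against 45.4, 83.3 and 54.9 FPKM at 4 h, and 59.9, 76.6 and 52.0 FPKM at 12 h in MT, against 30.7, 25.2 and 24.4 FPKM at 4 h.

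LOC101258043, which overlaps LOC101250283, had 51.7, 78.7 and 59.2 FPKM at 12 h in EX, against 22.9, 40.0 and 26.0 FPKM at 4 h, a difference of 1.09 ± 0.30 that was not called (SE, limma, adjusted p = 0.301). The 2 genes whose 12 h mean in MT was lower by at least 1 log2 unit were LOC101249252 and LOC101244203. LOC101249252 had 6.04, 10.04 and 11.4 FPKM at 12 h in MT, against 57.2, 9.04 and 19.2 FPKM at 4 h, and library 1 of 4 h lay far above the others (-1.20 ± 0.57, SE, limma, adjusted p = 0.408). LOC101244203 had 5.66, 9.63 and 7.75 FPKM at 12 h in MT, against 31.97, 15.4 and 15.5 FPKM at 4 h, with no overlap between the hours (-1.28 ± 0.42, SE, limma, adjusted p = 0.218). Library 1 of 4 h was again far above the others, and the difference was not obtained without it.

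**Figure D5:**
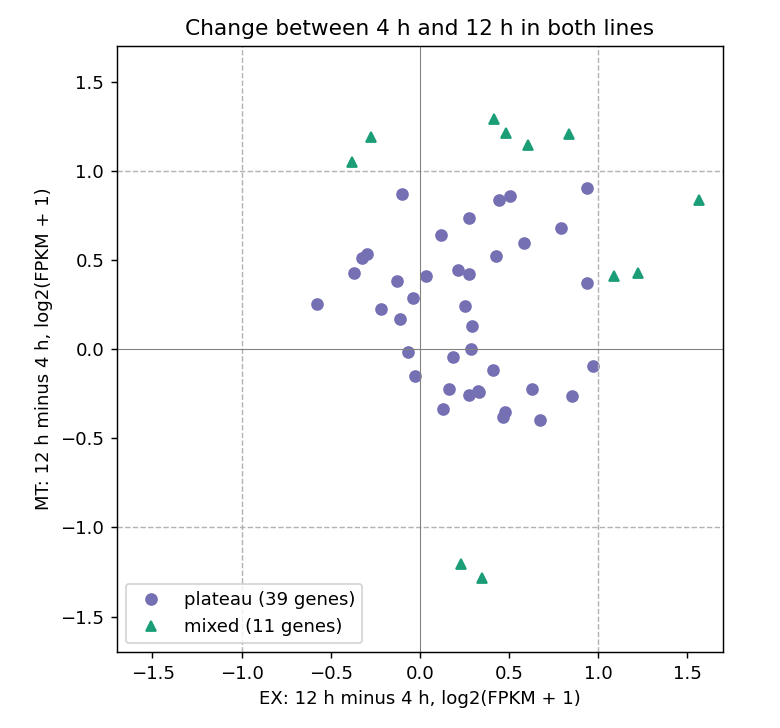
Mean log2(FPKM + 1) at 12 h minus 4 h in EX (horizontal) and in MT (vertical) for the 50 genes, with circles for the 39 genes within 1 log2 unit in both lines and triangles for the other 11. No gene lies beyond 1 in both lines, and the triangle farthest to the right is LOC101248009 at 1.56 in EX and 0.84 in MT.

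Of 36 cold and clock symbols looked for, 9 were found among the symbols that the table itself gives. Genes that the table lists by a LOC identifier could not be found in this way, so the other symbols may have rows too. Clock symbols such as LHY, TOC1 and GI were not among the 9. Only CO1, a CONSTANS-type B-box gene of the photoperiod pathway, met all 4 rises, 5 of the 9 were above their 0 h mean in all 4 contrasts, and ICE1a and CBF1 were below it in all 4. Some of these signs rest on little: in EX the log2 mean of ICE1a differed by -0.06 at 4 h and -0.01 at 12 h. DREB1, 1 of the 5, averaged 0.653 to 1.26 FPKM. CO1 averaged 2.74 ± 0.655, 34.0 ± 0.921 and 45.8 ± 13.2 FPKM in EX and 4.57 ± 2.84, 53.7 ± 5.03 and 62.2 ± 8.57 FPKM in MT at 0, 4 and 12 h. CBF1, a C-repeat binding factor that answers cold within the first hours in tomato, averaged 119.8 ± 24.6, 25.3 ± 4.87 and 34.6 ± 37.4 FPKM in EX and 73.6 ± 41.2, 16.8 ± 2.94 and 31.5 ± 13.5 FPKM in MT. DREB3, a relative of CBF1, averaged 119.7 ± 36.0, 198 ± 20.7 and 184 ± 39.7 FPKM in EX and 97.8 ± 27.1, 245 ± 100.4 and 214 ± 76.7 FPKM in MT. The dehydrin gene TAS14 and DREB2 followed no common direction, and TAS14 averaged 96.4 ± 118 FPKM in EX at 12 h, with an SD larger than its mean.

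The same 4 rises were met by 14 genes that carry a symbol in the table and by 1 added transcript model, outside the chromosome 7 segment. They included NR, nitrate reductase, with the largest smallest rise of these at 4.60, Psy1, phytoene synthase of the carotenoid pathway that feeds abscisic acid synthesis, at 3.33, and the expansin gene EXP2 at 2.93. NR averaged 6.84 ± 2.02, 187 ± 35.4 and 253 ± 25.4 FPKM in EX and 5.88 ± 3.46, 169 ± 91.6 and 212 ± 20.7 FPKM in MT at 0, 4 and 12 h. No LOC gene inside the chromosome 7 segment met the rises, and 18 LOC genes were lower by at least 2 in all 4 contrasts.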

How the data were processed

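The data were RNA-seq values of 18 tomato leaf libraries, 3 in each of 6 groups assigned by their labels. Per the file headers, the authors deposited FPKM per gene and library, with gene coordinates. No source used here gives their genome build. Without roles, the submitters' processing notes list DESeq2 1.4.5, RSEM 1.2.12, Bowtie2 2.2.5 and HISAT2 2.0.4. The table holds 36 FPKM columns, of which 18 repeat a column of the same name with 0 differing values and were not used, and the authors' comparison columns were not used. Strand use in counting is not stated.

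FPKM was transformed to log2(FPKM + 1). Genes whose mean reached 1 FPKM in any group (17870, all 50 members among them) were fitted with limma 3.58.1 (R 4.3.3), with 6 group means, trended moderation and Benjamini-Hochberg adjustment over all genes tested, and called at adjusted p under 0.05. The limma test was checked on simulated data. Symbols were matched by gene identifier to a RefSeq gene table of another assembly, which held 21649 of the identifiers. It was used for names, gene classes and chromosome numbers. Each sequence of the deposited table took the chromosome on which most of its matched genes lie there, while positions are those deposited. The cold and clock list and the tissue genes were matched by the symbols of the deposited table alone. Depth was estimated from transcripts of 350 to 1500 bases, where 92.4 to 96.3% of low values lay within 0.1 of a whole fragment.

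The 50 genes and all lists were chosen with earlier results of these data known. Genes were named by rule: the 8 largest smallest rises, the 6 highest later levels, genes called in a comparison, the 3 on each side of the threshold, neighbouring pairs, up to 3 per time pattern and the cold and clock genes with the highest levels. Genes with a symbol, LOC101254427, LOC101249252, LOC101244203 and the relatives lists were chosen after their values were seen. Libraries of EX and MT at 12 h with the same number deviated together (correlations 0.568, 0.231 and 0.405). No label pairs them, these 3 correlations are not independent of each other, and whether the libraries were paired was not tested. Alternatives were another pseudocount (0.1), other filters, scaling, moderation, a replicate block, fewer groups in the fit and leaving out libraries. For each test, single libraries were left out only from the 2 groups compared. No sequences were used here.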

Additional observations from a re-analysis of the deposited data

How the results depend on the processing

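The number of genes that met the rule was 50, 85 with a pseudocount of 0.1, 104 with rises of at least 1.5, 24 with rises of at least 2.5, and 41 to 61 with 1 library left out (41 without EX 0 h library 3, 61 without EX 0 h library 2). Between EX and MT at 0 h, 3 genes were called, and 6 were called with a pseudocount of 0.1, 1 with median-of-ratios scaling, 1 with the replicate block, 0 without the first MT libraries of 0 h and 4 h, 0 in a fit of the 2 groups alone, and 0 to 12 with 1 library left out. The calls over all genes moved alongside, with 567 in the full fit, 23 in the 2 groups alone, and 90 to 3397 with 1 library left out. At 4 h the 0 calls became 0 to 2 with 1 library left out (2 without MT library 2, 1 in each direction). At 12 h the 0 calls stayed 0 in all alternatives, including a replicate block fitted to the libraries of that hour alone. For 12 h against 4 h in MT, 2 calls became 1 with a pseudocount of 0.1 (LOC101252243 was lost, adjusted p = 0.171), 0 in a fit of the 2 groups alone and 2 to 4 with 1 library left out (4 without library 2 of 4 h). For 12 h against 4 h in EX, 1 call became 2 without the first MT libraries of 0 h and 4 h, 3 in a fit of the 2 groups alone and 1 to 2 with 1 library left out (2 without library 2 of 12 h). Over all genes, the fit of the 2 groups alone moved the calls from 99 to 1 in MT and from 36 to 63 in EX. In the other comparisons same-numbered libraries deviated together for some numbers and not for others (correlations -0.417 to 0.433), and the replicate block left 0 calls at 4 h, 2 in MT and 1 in EX. The differences of the 6 called genes kept their sign in every alternative, and those of the other genes were not followed. The causes of these changes were not tested. Estimated fragments at 0 h limit the size of the rise in genes listed near 0.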
